A study of Mus musculus with 17 samples.

Results

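The Maf family of basic leucine zipper transcription factors was represented by 6 genes, Maf, Mafa, Nrl, Maff, Mafg and Mafk, out of 21938 protein-coding genes of the mouse annotation GENCODE vM21 on mm10 (GRCm38). They were taken by name, and not by any value measured here. For each gene, every H3.3 island was collected that overlapped the gene body or the 20 kb on either side of it, a stretch called the window below. An island is a stretch of the genome in which the reads of a chromatin immunoprecipitation (ChIP-seq) library are denser than its background model allows.

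The study asked how chromatin changes as lens epithelial cells differentiate into lens fibers. H3.3 was profiled in 4 libraries, 2 from the epithelium and 2 from the fibers of newborn lenses of CD1 mice, an outbred stock. The labels name no transgene and no treatment for these groups. The titles give the age as postnatal day 1 and the protocol as day 0.5, with 150 lenses pooled per sample, so each library is a pool of animals and not 1 animal. The study's methods give another number of lenses, without saying whether it is per sample. The exact two-sided permutation test over 2 against 2 libraries has 6 splits and cannot give a p below 0.33, and no comparison of compartments here could pass a threshold of 0.05.

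Maf proteins bind DNA as dimers at Maf recognition elements, whose core is TGCTGA. The large Maf proteins carry an activation domain. In the lens, Maf (c-Maf) is needed for fiber elongation and for crystallin expression. Mafa activates the insulin gene in pancreatic beta cells, and its chick counterpart acts in the lens. Nrl directs the rod photoreceptor fate in the retina. The small Maf proteins Maff, Mafg and Mafk lack the activation domain and work as partners of other leucine zipper proteins, among them Nfe2, the Nrf factors and the Bach repressors. Mice that lack Mafg and part of their Mafk develop cataract. H3.3 is the histone variant that is placed into chromatin outside replication, and it is known from the starts, bodies and regulatory regions of transcribed genes.

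RefSeq starts of the Maf genes differ in CpG content, and 4 of them are shown because they differ in which libraries, if any, had an island over them. They need not be the annotated gene starts used for distances and start counts elsewhere. The RefSeq start of Nrl, chr14:55524252, lies inside the annotated gene, which starts at 55524981. The RefSeq promoter table (GRCm38.p6) matched Mafk, Mafg, Maff and Nrl. Maf and Mafa were not matched. The 250 bases before each start are given 5′ to 3′ on the strand of the gene, with every CpG in capitals.
Mafk, chr5:139791286-139791535, plus strand: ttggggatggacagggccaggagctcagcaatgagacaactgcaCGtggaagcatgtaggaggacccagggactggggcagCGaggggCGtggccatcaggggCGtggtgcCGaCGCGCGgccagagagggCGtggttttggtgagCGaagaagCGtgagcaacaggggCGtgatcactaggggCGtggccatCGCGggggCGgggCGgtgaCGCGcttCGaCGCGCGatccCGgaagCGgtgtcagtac
Mafg, chr11:120633548-120633797, minus strand: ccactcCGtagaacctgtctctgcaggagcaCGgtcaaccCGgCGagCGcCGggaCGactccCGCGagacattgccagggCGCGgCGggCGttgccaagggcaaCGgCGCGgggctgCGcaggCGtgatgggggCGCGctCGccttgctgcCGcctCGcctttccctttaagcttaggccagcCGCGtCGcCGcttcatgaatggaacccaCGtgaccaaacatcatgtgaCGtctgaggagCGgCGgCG
Maff, the second of 3 RefSeq starts, chr15:79347270-79347519, plus strand: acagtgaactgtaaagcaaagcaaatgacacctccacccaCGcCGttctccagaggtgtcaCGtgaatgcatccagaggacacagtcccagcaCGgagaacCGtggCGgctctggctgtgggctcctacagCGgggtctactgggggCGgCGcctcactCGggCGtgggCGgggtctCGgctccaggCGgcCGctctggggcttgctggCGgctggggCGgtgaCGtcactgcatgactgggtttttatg
Nrl, chr14:55524253-55524502, minus strand: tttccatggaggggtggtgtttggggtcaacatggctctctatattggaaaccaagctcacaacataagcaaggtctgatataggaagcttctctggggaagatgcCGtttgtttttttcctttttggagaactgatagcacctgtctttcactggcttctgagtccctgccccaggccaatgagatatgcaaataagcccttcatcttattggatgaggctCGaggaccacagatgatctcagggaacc
Counted over 300 bases, the 250 shown and the 50 that follow the start, these promoters held 31, 39, 21 and 2 CpG, and the median over 32851 promoters was 7. The Mafk promoter lay under islands over all 300 bases in epithelium replicate 1 and both fiber libraries, and over 185 bases in epithelium replicate 2. The Mafg promoter was wholly covered in epithelium replicate 1 and in both fiber libraries, and not at all in epithelium replicate 2. The Maff promoter was wholly covered in epithelium replicate 2 and in both fiber libraries, but not in epithelium replicate 1. The Nrl promoter, with the fewest CpG, was under no island in any library. Cover did not simply follow CpG content. The promoter of the first Maff start, the annotated gene start and not shown, held 5 CpG. It was wholly covered in both fiber libraries and not at all in either epithelium library. The core TGCTGA, searched on both strands, occurred in the Mafk promoter alone among the 4 shown, on the opposite strand, with 220 bases between the match and the start. It occurred in 19.5% of all promoters of this length.

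Fiber islands were more numerous and wider over the whole genome, and each Maf gene has to be read against that. Across the genome, 10389 and 14434 islands over 45.4 and 48.9 Mb had been called in the epithelium libraries, and 27059 and 35940 over 178 and 188 Mb in the fiber libraries. The reads inside islands were 1331369 and 1430373 against 5041885 and 5359085. The sequencing depth behind them is not given in the sources used here, and its part in the difference was not tested. The median protein-coding gene had 0% of its window under islands in both epithelium libraries, and 7.18% and 8.53% in fiber replicates 1 and 2. A library pools many cells, so fewer cells with H3.3 at a gene and less H3.3 per cell cannot be told apart.

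Islands covered more of the window in both fiber libraries than in both epithelium libraries for 5 of the 6 Maf genes. Nrl was the exception. Among all protein-coding genes, 52.8% met the same rule, and only 0.647% showed the opposite order, which no Maf gene did. The median difference over the 6 genes was 37.2 percentage points, compared with 5.41 points over all coding genes (exact permutation p = 0.33 over libraries for the Maf genes, the smallest possible). The differences ranged from 1.52 points at Nrl to 82.2 points at Mafa. When the same number of islands, 10389, was taken from every library by read density, the median difference of the Maf genes was 26.3 points. The median over all coding genes at this setting is not given, and equal numbers of islands need not cover equal lengths.

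**Figure D1:**
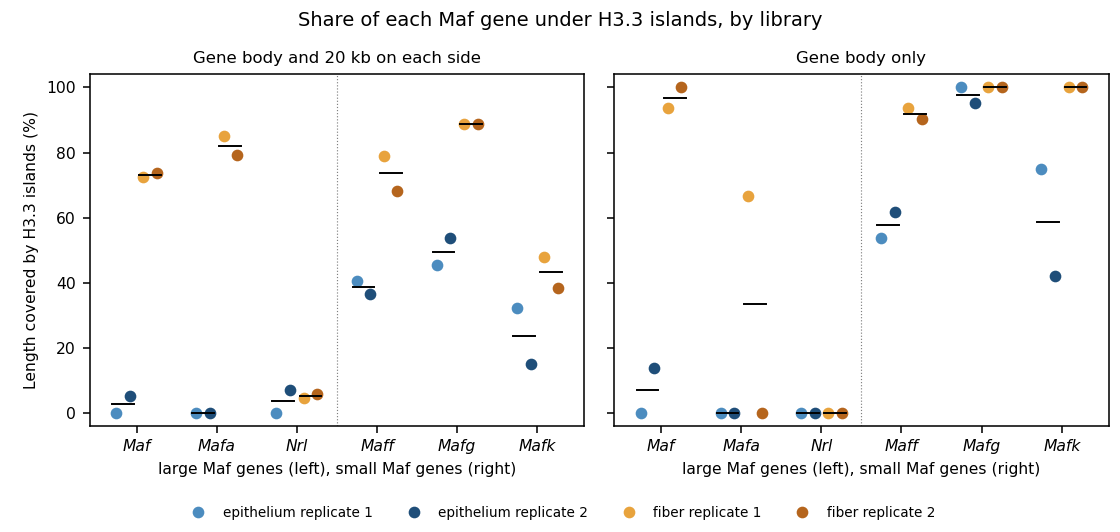
Share of the length (%) under H3.3 islands for each Maf gene, with 1 point per library and a black bar at the mean of the 2 libraries of a compartment; the left panel takes the gene body and 20 kb on each side, the right panel the gene body alone. In the left panel Maf and Mafa lie at 5.24% or less in epithelium and at 72.6% or more in fibers, while the small Maf genes lie between 14.96% and 53.6% in epithelium.

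Maf, on the minus strand at chr8:115682942-115707794, had almost no island in epithelium and was nearly covered in fibers. Islands took up 0% of its window in epithelium replicate 1, 5.24% in epithelium replicate 2, 72.6% in fiber replicate 1 and 73.7% in fiber replicate 2. The fiber values lay close together and far above both epithelium values. The means were 2.62% ± 3.71 and 73.1% ± 0.808 (SD, n = 2 each), a difference of 70.5 points (exact permutation p = 0.33), and 30 of the 21938 coding genes had a larger one. Limited to the 10389 densest islands per library, it was 44.6 points. No other coding gene overlaps this window, so no island of a coding neighbour is counted in it. Within the gene body the shares were 0%, 13.7%, 93.6% and 100% in the same order of libraries.

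The single epithelium island at Maf lay inside the gene and not at its start. It spanned chr8:115696601-115700000 in epithelium replicate 2, 3400 bp that were intronic throughout, from 7794 to 11193 bp downstream of the start, and held 96 reads or 28.2 reads per kb. Its density was higher than that of 51.3% of the islands of its library, near the middle. Fiber replicate 1 had an island of 5000 bp that ended at the same base, chr8:115695001-115700000, at 42.2 reads per kb, denser than 99.0% of its library. In fiber replicate 2 the place lay within an island of 27200 bp that took in the whole gene and the start of the noncoding gene Gm15655, and that was longer than 99.3% of the islands of that library. Thus all of the epithelium-covered bases of Maf, 100%, were also covered in both fiber libraries, and they made up 6.18% of the fiber-covered bases.

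Cover around Maf in fibers was highest next to the gene. In the 20 kb outside the gene on either side, 59.5% and 57.4% were covered in fiber replicates 1 and 2. From 20 to 50 kb the shares were 12.2% and 9.10%, from 50 to 100 kb 8.06% and 19.4%, and from 100 to 200 kb 14.8% and 11.9%. Neither epithelium library had an island anywhere in the 200 kb flanking the gene.

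Mafa, a single-exon gene on the minus strand at chr15:75745490-75748228, had the widest difference of the family. No island touched its window in either epithelium library (0%, 0%), and the fiber libraries covered 85.0% and 79.3% of it. The fiber mean was 82.2% ± 3.97 (SD, n = 2; exact permutation p = 0.33), and 3 coding genes had a larger difference. Both fiber libraries lay above the epithelium, as they did for Maf. Part of this cover, 34.7% and 40.0% of the covered bases in fiber replicates 1 and 2, lies in a neighbour. Islands of 12600 and 13800 bp upstream of Mafa overlapped Zc3h3, which encodes a zinc finger protein, and the small RNA gene Gm23747, whose start they took in.

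The fiber replicates differed over the gene body of Mafa. In fiber replicate 1, 66.7% of the gene was under an island that reached over the start, and in fiber replicate 2, 0%. In both libraries an island downstream of the gene ended at the same base, 75745400. The next began after a gap of 1000 bp in fiber replicate 1 and of 3000 bp in fiber replicate 2, and the second gap held all 2739 bp of the gene. The body therefore overlapped between compartments (exact permutation p = 1) although the window did not. The body of Mafa had 65.0% G and C and 90.9 CpG per kb, compared with 44.6% to 55.6% and 19.96 to 30.3 CpG per kb in the other 5 genes, and none of its 75-base stretches, the length of a read, occurred elsewhere in the genome. Whether base composition plays a part in the gap was not tested.

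Mafa lay in a broad covered domain. Fiber cover was 86.2% and 84.8% within 20 kb of the gene, 75.4% and 64.5% from 20 to 50 kb, 62.9% and 56.8% from 50 to 100 kb, and 38.5% and 32.7% from 100 to 200 kb. In the epithelium the first ring held no island, and the ring from 100 to 200 kb was covered over 20.1% and 15.8%. Cover thus declined with distance in fibers and was higher far from the gene than near it in epithelium.

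**Figure D2:**
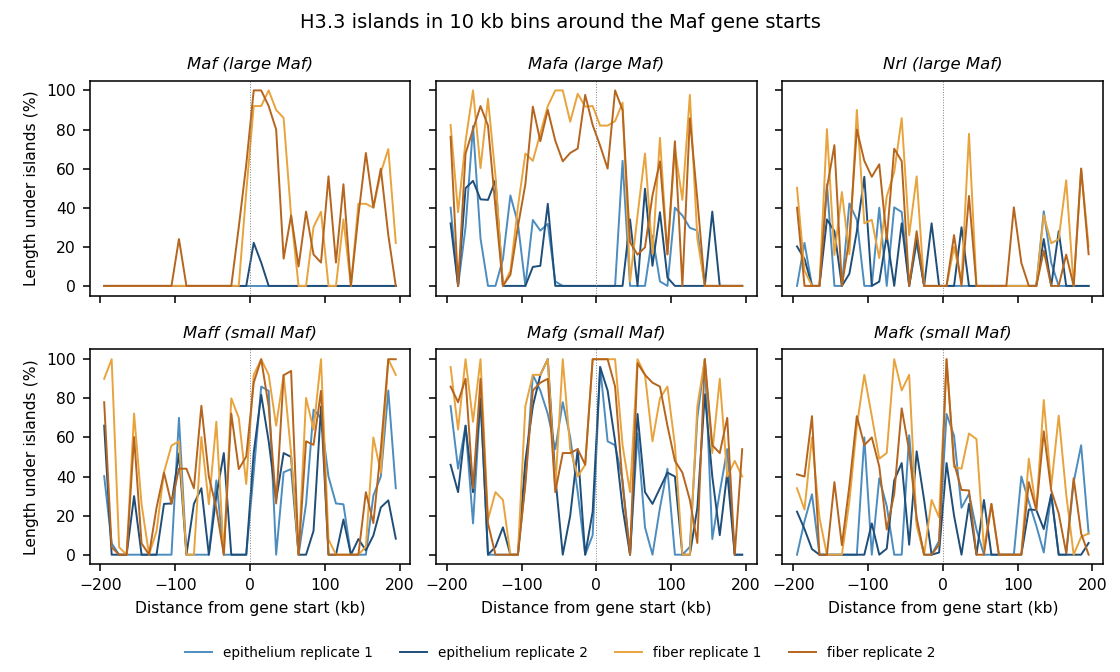
Share of each 10 kb bin (%) under H3.3 islands out to 200 kb on either side of the annotated start of each Maf gene, by library, with the direction of transcription to the right. Maf shows a fiber block over the gene and mainly downstream of it, Mafa a broad one on both sides, and the 3 small Maf genes have epithelium cover (blue lines) at the gene itself.

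Nrl, on the minus strand at chr14:55518978-55524981, had no island in its body in any library. Its window was covered over 0% and 6.96% in the epithelium replicates, and over 4.35% and 5.65% in the fiber replicates. The compartments overlapped, and the difference of 1.52 points (exact permutation p = 1) was larger than that of 37.5% of coding genes. The islands were at the edges of the window. In fibers they were 2000 and 2600 bp long, overlapped Carmil3, began 16781 and 16381 bp downstream of the Nrl start, and had 2000 bp in common. In epithelium replicate 2 the island was 3200 bp long, at the other end of the window, and covered the start of Gm10876 and a part of Pck2, the gene of mitochondrial phosphoenolpyruvate carboxykinase. No base of it was covered in a fiber library. Of 5 retina and photoreceptor markers, Otx2 had 0% in all 4 libraries, and none had an island in its body in either epithelium library.

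Mafg, on the minus strand at chr11:120625117-120633600, was the most covered Maf gene in the epithelium. The window values were 45.4% and 53.6% in the epithelium replicates, and 88.9% in both fiber libraries. The fiber values lay above both epithelium values, by 39.4 points on average (exact permutation p = 0.33). The gene body itself was already covered over 100% and 95.3% in the epithelium, and over 100% in both fiber libraries, so the difference lay in the flanks (body, exact permutation p = 1).

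In fibers 1 island took the place of the separate islands of the epithelium. Epithelium replicate 1 had 5 islands in the window and epithelium replicate 2 had 4, with the longest at 10600 and 12200 bp over the gene. Each fiber library had a single island, of 46000 and 43200 bp, longer than 99.8% of the islands of its library. It ran over the starts of Pycr1, an enzyme of proline synthesis, Sirt7, a nuclear deacylase, Pcyt2, an enzyme of phosphatidylethanolamine synthesis, and Npb, a neuropeptide precursor, and of Myadml2, Myadml2os, Gm17586 and Mir6936. With 35.9 and 36.5 reads per kb it was denser than 94.1% and 93.5% of its library. All epithelium-covered bases of Mafg lay under the fiber islands of both replicates.

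Maff, on the plus strand at chr15:79346621-79359076, had 40.4% and 36.6% of its window under islands in the epithelium replicates, and 79.1% and 68.2% in the fiber replicates. The compartments did not overlap, and the difference was 35.1 points (exact permutation p = 0.33). Limited to the 10389 densest islands per library it was 5.32 points, and limited to the denser part of each library, at or above the median reads per kb, 7.03 points. Within the gene the shares were 53.6% and 61.6% against 93.6% and 90.4%. In the epithelium the longest islands, 9000 and 5800 bp, touched the neighbour Tmem184b. No epithelium island covered the annotated gene start. In fibers an island of 8800 or 10200 bp covered the start, and a second one, of 22200 or 21200 bp, ran from inside the gene into Tmem184b. Another fiber island covered the start of Pla2g6, a phospholipase gene, in both replicates. Of the bases covered in either epithelium library, 96.8% were covered in both fiber libraries.

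Mafk, on the plus strand at chr5:139791513-139802653, was the least covered of the small Maf genes. Its window values were 32.1% and 14.96% in epithelium, where the replicates differed most, and 47.8% and 38.4% in fibers. The lowest fiber value lay above the highest epithelium value, and the difference was 19.6 points (exact permutation p = 0.33), larger than that of 75.3% of coding genes. Without epithelium replicate 2 it was 11.1 points, and without epithelium replicate 1 it was 28.2 points. The body was covered over 74.9% and 42.1% in epithelium and over 100% in both fiber libraries. An island of 2200 bp lay over the start in each epithelium library, and in fibers 1 island of 16400 or 15200 bp ran from the start across the whole gene. The other starts under islands in this window were those of Tmem184a and, in fiber replicate 1, of Ints1, a subunit of the Integrator complex.

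**Figure D3:**
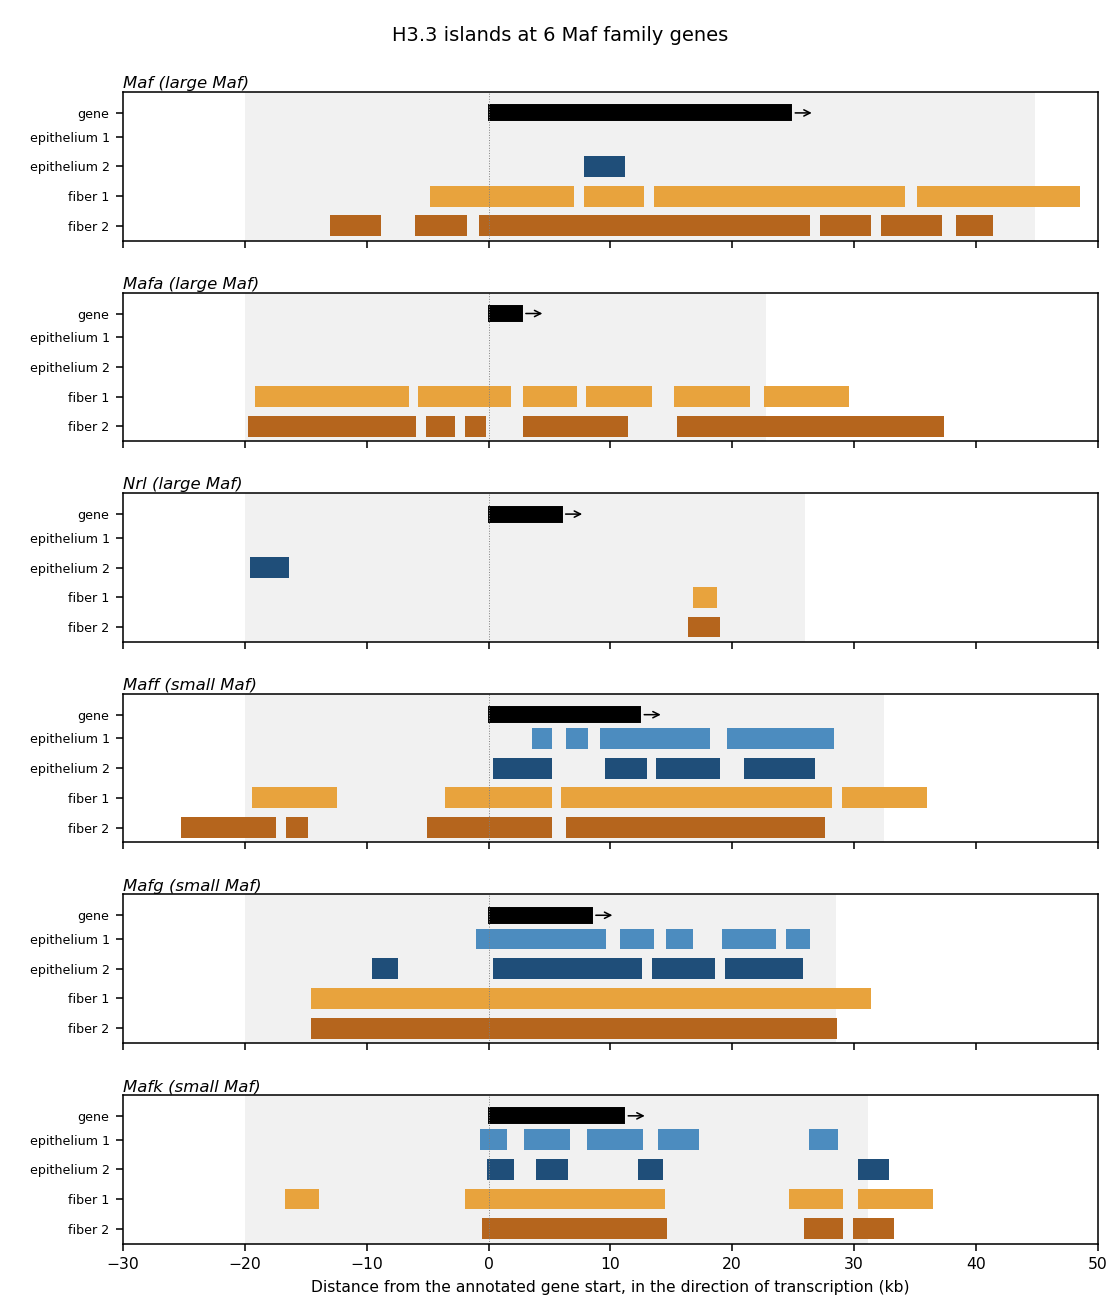
Islands of each library (coloured bars) against the distance from the annotated start of each Maf gene (kb, direction of transcription to the right); black bars are the genes and grey shading is the gene body with 20 kb on each side. Maf and Mafa have 1 epithelium island between them, Nrl has none over the gene, and at Mafg a single fiber island of 46000 or 43200 bp spans the places of the epithelium islands.

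Counts of genes with islands separated the sub-families in epithelium. All 3 small Maf genes and no large Maf gene had an island in the window in both epithelium libraries (3 of 6; 32.1% of coding genes), and the same 3 had one in the body (19.8% of coding genes). In both fiber libraries all 6 Maf genes had an island in the window (59.2% of coding genes) and 4 had one in the body, Maf and the small Maf genes (48.1% of coding genes). Body cover was higher in fibers without overlap for 3 Maf genes, Maf, Maff and Mafk (38.4% of coding genes). Over the gene start, Mafk alone had islands in both epithelium libraries (6.83% of coding genes), and Maf, Maff, Mafg and Mafk had them in both fiber libraries (31.4% of coding genes). Mafg had 1 over its start in epithelium replicate 1 only, because the island of epithelium replicate 2 ended 400 bp downstream.

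The mean covered share of the 3 large Maf windows was lower than that of the 3 small Maf windows in every library. With both epithelium libraries first and both fiber libraries after them, the large means were 0%, 4.07%, 54.0% and 52.9%, and the small means 39.3%, 35.1%, 71.9% and 65.2%. Large minus small was therefore -39.3 and -31.0 points in epithelium, and -18.0 and -12.3 points in fibers. The gap was 20.03 points smaller in fibers on average (exact permutation p = 0.33). Nrl decided the fiber value: with Maf and Mafa alone, large minus small was 9.10 points in fibers, the opposite sign, and the change between compartments was 45.0 points. Without Mafa this change was 4.65 points, and without Maf 10.5 points. The epithelium gap stayed between -35.9 and -34.1 points in these 3 cases. With 3 genes in each sub-family, the means describe these genes and are no test of the sub-families. The windows also take in neighbours. Other coding genes held 53.3% to 66.4% of the covered bases at Mafg, 42.7% to 60.9% at Maff and 37.3% to 45.8% at Mafk. At Mafa they held 34.7% and 40.0% in fibers, at Nrl 87.4% to 100% where an island was present, and at Maf none. The part of neighbours in the difference between sub-families was not tested.

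The sub-families also differed in island number, with opposite orders in the compartments. In the same order of libraries, 0, 2, 11 and 12 islands lay in the large Maf windows and 14, 12, 9 and 8 in the small Maf windows. So the small Maf genes had more cover but fewer islands in fibers. Their median island length was 3100 and 4100 bp in epithelium and 7000 and 9000 bp in fibers. For the large Maf genes it was 3300 bp in epithelium replicate 2, and 7000 and 4200 bp in fibers, so the median lengths were equal in fiber replicate 1.

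Read density within islands differed much less than cover. Islands are called by read density, and places of low density count as uncovered. The smaller difference in density therefore cannot be read apart from the calling. Summed over a sub-family, the small Maf islands held 32.3, 31.4, 32.1 and 33.2 reads per kb in the 4 libraries, and the large Maf islands 26.5 in epithelium replicate 2 and 30.8 and 32.0 in fibers. The median island of a library held 27.4 to 28.3. On a log2 scale the fiber to epithelium ratio of reads per kb was 0.09 at Maf, 0.13 at Mafg, 0.10 at Mafk and -0.11 at Maff, and the median over 6874 coding genes with islands in all libraries was 0.02. These are ratios of raw reads within called islands. The ratio at Nrl, 0.45, compares islands at different places, and Mafa has no epithelium island to form one.

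**Figure D4:**
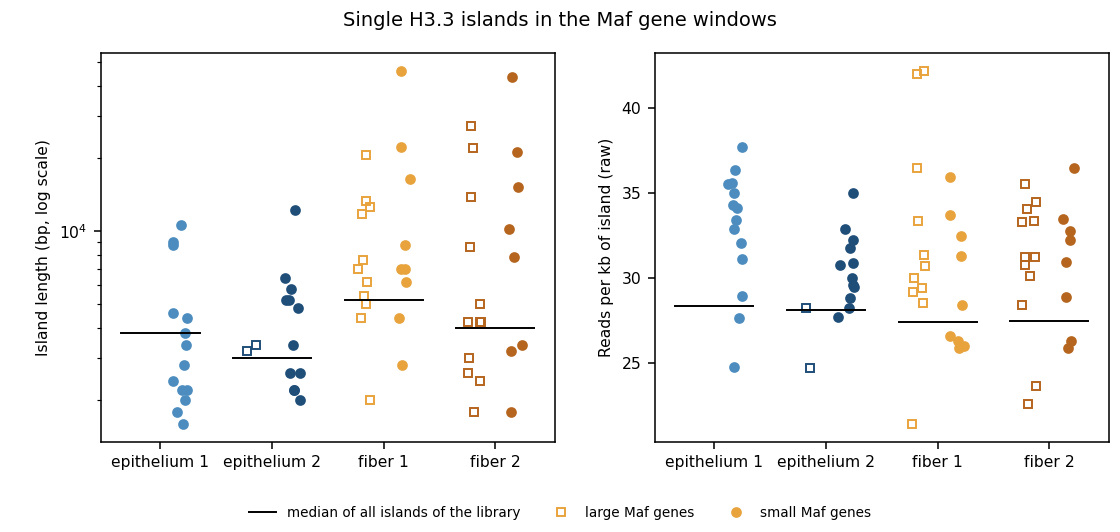
Length (bp, log scale, left) and raw reads per kb (right) of every island in the windows of the large (open squares) and small (filled circles) Maf genes, by library, with the median of all islands of the library as a black line. The longest are the fiber islands of 46000 and 43200 bp at Mafg, and the densest is the island of 42.2 reads per kb inside Maf in fiber replicate 1.

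The dimer partners of the small Maf proteins and their regulator Keap1 showed the same order of compartments. All 7 genes of this list had more cover in both fiber libraries than in both epithelium libraries (52.8% of coding genes), with a median difference of 27.6 points. Bach2, a repressor, had 1.03% and 0.568% of its window covered in epithelium and 71.6% and 64.3% in fibers. Nfe2l2, which encodes Nrf2, the activator of antioxidant genes, had 4.92% in both epithelium libraries and 47.7% and 46.9% in fibers. Its inhibitor Keap1 had 5.64% and 25.4%, then 39.1% and 47.1%. Bach1 had the smallest difference, from 0% and 3.23% to 10.9% and 4.301%. The values of Nfe2, Nfe2l1 and Nfe2l3 lay between 11.0% and 21.5% in epithelium and between 35.4% and 68.9% in fibers.

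The marker genes show what the same windows look like for genes of known cell type. All 8 lens fiber markers had more cover in both fiber libraries than in both epithelium libraries (52.8% of coding genes). Their median difference was 61.5 points, against 5.41 points over all coding genes. The same order held for 3 of 4 lens epithelium, 3 of 5 retina and photoreceptor and 1 of 3 pigment epithelium markers. It also held for 2 of 2 vessel markers and 1 of 2 blood markers. Foxe3, a factor of the lens epithelium, had 0% and 16.1% in epithelium and 45.7% and 27.9% in fibers. The exception among the lens epithelium markers was Gja1 with 2.76%, 6.75%, 0% and 5.52%. The epithelium markers thus do not set the epithelium libraries apart by cover. Of the other cell types, the pigment epithelium and blood markers had no island in epithelium, and Rpe65, Tyr and Hbb-bt had 0% in all 4 libraries. Pmel reached 7.85% and 11.4%, and Hba-a1 10.3% and 13.2%, in fibers. The 2 vessel markers, Pecam1 and Cdh5, ranged from 0% to 5.28% in epithelium and from 5.31% to 22.4% in fibers.

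The coding genes most like each Maf gene were found by the Euclidean distance between covered shares over the 4 libraries. For Maf they were Asap1, Crygc and Tnrc6b, at 2.66, 5.13 and 5.29 points. Crygc is a gamma-crystallin gene, with 0% and 1.13% in epithelium and 75.6% and 73.2% in fibers. For Mafa Mboat1 and Prkag2 were among them, and they were for Nrl Gabrd, Psmb9 and Tap1, for Maff Carns1, Ube2o and Spata2, for Mafg Pgs1, Lfng and Trim8, and for Mafk Mpst, Pgam1 and Hgh1. These distances ran from 0.428 points for Mboat1 to 5.46 points for Trim8.

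Ordered by mean fiber cover, the genes were Mafg, Mafa, Maff, Maf, Mafk and Nrl. The values of Maff and Maf overlapped between replicates, the lower value of Mafa, 79.3%, lay just above the higher value of Maff, 79.1%, and Mafk and Nrl stood apart from their neighbours. Ordered by mean epithelium cover, they were Mafg, Maff, Mafk, Nrl, Maf and Mafa, and the values of Nrl, Maf and Mafa could not be separated.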

How the data were processed

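Islands of 4 H3.3 ChIP-seq libraries were used. Per the labels and the study's methods, the authors immunoprecipitated 12 µg of chromatin, mapped single-end 75-nt reads to mm10 with BWA and ran SICER2 on each library separately (window 200 bp, gap 600 bp, false discovery rate 0.01). Tool versions are not given in the sources used here. In the deposited files an island has a start, an end and a raw read count, without scaling. Starts were read as 0-based and are printed 1-based.

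Islands were intersected with the gene body and 20 kb on each side (GENCODE vM21) in Python 3.11.15 with numpy 2.4.6. Covered share is the percent of that window under islands. Reads per kb is the summed count of the overlapping islands over their summed length. Compartments were compared with exact two-sided permutation tests over libraries (scipy 1.17.1), and every count was set beside 21938 coding genes. The scripts were tested on simulated data. The total reads inside islands per library are given in the report. Depth is unknown, so no counting interval was computed, and 2 libraries per compartment limit the precision. The study's methods call the replicates biological, without saying how the pools of lenses were split.

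The genes and lists were chosen with earlier results of these data known. Genes were named by a rule: the 6 Maf genes, other genes whose start lies in their windows under an island, the 3 coding genes with the nearest cover for each (1 is not reported here), and the partner and marker lists. Other neighbours that an island overlaps were named after their values were seen. Alternatives changed the window, the islands kept, their merging and the libraries. Promoter sequences are from RefSeq. Also in the series but not used here are 12 bisulfite libraries and an input pool.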

Additional observations from a re-analysis of the deposited data

How the results depend on the processing

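The order of compartments held for at least 5 Maf genes under every window, island threshold, overlap, merging and left-out library tried, except with the gene body only, where the count was 3. The median difference over the 6 genes stayed above 0 in all of them, from 26.3 to 40.0 points, and from 34.5 to 40.0 points when each library was left out in turn. Replicate differences in epithelium and in fibers were almost uncorrelated over coding genes (correlation -0.0057). That cannot tell whether libraries of the same replicate number were paired by design. With the replicate block the median difference was 37.2 points and the change between sub-families 20.03 points (exact sign-flip p = 0.5, the smallest possible). That change ranged from 15.9 to 24.2 points when each library was left out.

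Large minus small cover in epithelium was -42.6 points with the coding span, -54.4 with a flank of 5 kb, -28.4 with 50 kb and -69.0 in the gene body, and from -39.3 to -31.0 without single libraries. In fibers it was -19.7 with the coding span, -31.1 with 5 kb, -53.9 in the gene body and -9.39 with islands of at least median density, and from -18.0 to -12.3 without single libraries. Leaving out genes was an alternative chosen after seeing the data, and gave -25.0 without Maf, -29.5 without Mafa and 9.10 without Nrl. Among single genes, the difference at Maff was 5.32 points with equal island numbers in all libraries and 7.03 with islands of at least median density. At Maf it was 44.6 with equal island numbers and 41.8 with 50 kb. At Mafk it was 12.2 with 50 kb and 41.5 in the body. When each library was left out, the Nrl difference ranged from -1.96 points without epithelium replicate 1 to 5.00 points without epithelium replicate 2. With a flank of 50 kb it was 8.21 points, and all 6 Maf genes then had more cover in fibers without overlap. When reads were divided by the library's total in islands, the log2 ratios of reads per kb were -1.77 at Maf, -1.78 at Mafg, -1.81 at Mafk and -1.41 at Nrl. That scaling moved the median of all coding genes to -1.89, so the signs follow the totals. Some settings left Mafa, Nrl or Maf without an epithelium island and gave no ratio.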
